A study of Mus musculus with 4 samples.

Results

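The p21-activated kinases (PAKs) were examined in embryonic interneurons of control and conditional *Dnmt1* knockout (KO) mice. *Dnmt1* is the gene of the maintenance DNA methyltransferase. The genes were chosen by name, as the rows *Pak1*, *Pak2*, *Pak3*, *Pak4* and *Pak6* of a table of 56883 genes. All 5 passed the filter on low values (a mean of 10 or more normalized counts), as did 14323 genes in all. RNA had been sequenced from tdTomato-positive cells sorted at E14.5 (an embryonic stage) from the basal telencephalon of the mouse, the region where cortical interneurons are born. Control cells carried *Sst-Cre/tdTomato* and *Dnmt1* KO cells carried *Sst-Cre/tdTomato/Dnmt1 loxP2*, with 2 libraries per genotype. Both genotypes therefore carried Cre under control of the somatostatin gene *Sst*, which drives recombination in postmitotic somatostatin cells, and the tdTomato reporter, and they differed by the floxed *Dnmt1* alleles, on a C57BL/6J background. Each library held cells pooled from several embryos whose sex was not distinguished, and p-values measure the spread between these libraries only.

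PAKs are serine/threonine kinases that act downstream of the small GTPases Rac and Cdc42. Group I kinases (PAK1, PAK2 and PAK3) are held inactive by their own regulatory domain until a GTPase binds, whereas group II kinases (PAK4, PAK5 and PAK6) follow a different mode of control. Both groups act on LIM kinase and through it on cofilin, the protein that severs actin filaments, and thereby on leading processes, neurites and migration. *Pak6* has been described as a gene under DNMT1 control in migrating interneurons of another origin, and the comparison of genotypes shows how the transcripts of the whole family stood in these cells.

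Whole reads recovered from the deposited values came to between 6970247 and 8376711 per library. *Dnmt1* itself had normalized counts of 2238 and 2341 in the control and 2164 and 2210 in the *Dnmt1* KO libraries (log2 fold change -0.066, limma adjusted p = 0.461). Counts summed over all exons of *Dnmt1* can include transcripts that lack the floxed exons, so they do not check the deletion. Reads over the floxed exons were not examined. The paper reports lower *Dnmt1* RNA in cells sorted from the E14.5 cortex and weaker DNMT1 staining in tdTomato-positive cells. Among markers of the sorted population, *Sst* had 5580 and 5963 normalized counts in the control and 8303 and 7825 in the *Dnmt1* KO libraries, and 13 of 14 interneuron markers were higher in the *Dnmt1* KO (limma, adjusted p below 0.05). Their summed normalized count was 25744 to 25785 in the control and 38237 to 38726 in the *Dnmt1* KO libraries. Markers of other cells were lower in the *Dnmt1* KO, with 6 of 8 for radial glia (1 higher), 6 of 6 for cycling cells, 6 of 7 for the excitatory lineage, 7 of 7 tested for blood and 7 of 7 tested for vascular cells and microglia. None of the 3 tested oligodendrocyte precursor markers was called, and no marker in any list was at 0 in all libraries. For all genes tested, limma called 8.3% higher and 8.99% lower in the *Dnmt1* KO. In bulk RNA, fewer cells of a type and less RNA per cell cannot be told apart.

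Of the 5 PAK genes, *Pak4* was lower in the *Dnmt1* KO and none was higher at an adjusted p below 0.05 in limma. The call of *Pak4* lay at the threshold, with an adjusted p of 0.0499. Among all genes tested, 17.3% were called, 8.3% higher and 8.99% lower in the *Dnmt1* KO. At an unadjusted p below 0.05, 2 of the 5 passed, *Pak4* (lower) and *Pak1* (higher). edgeR called 1 of the 5 lower and 0 higher (17.6% of all genes called), and DESeq2 called 0 of the 5 (9.97% of all genes called), with 2 of the 5 at an unadjusted p below 0.05. Libraries of the genotypes did not overlap for 3 of the 5, *Pak1*, *Pak2* and *Pak4*, while this held for 57.4% of all genes tested. The median log2 fold change was 0.14 over the 5 genes and -0.0033 over all genes tested. Neither count was far from the share among all genes.

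**Figure D1:**
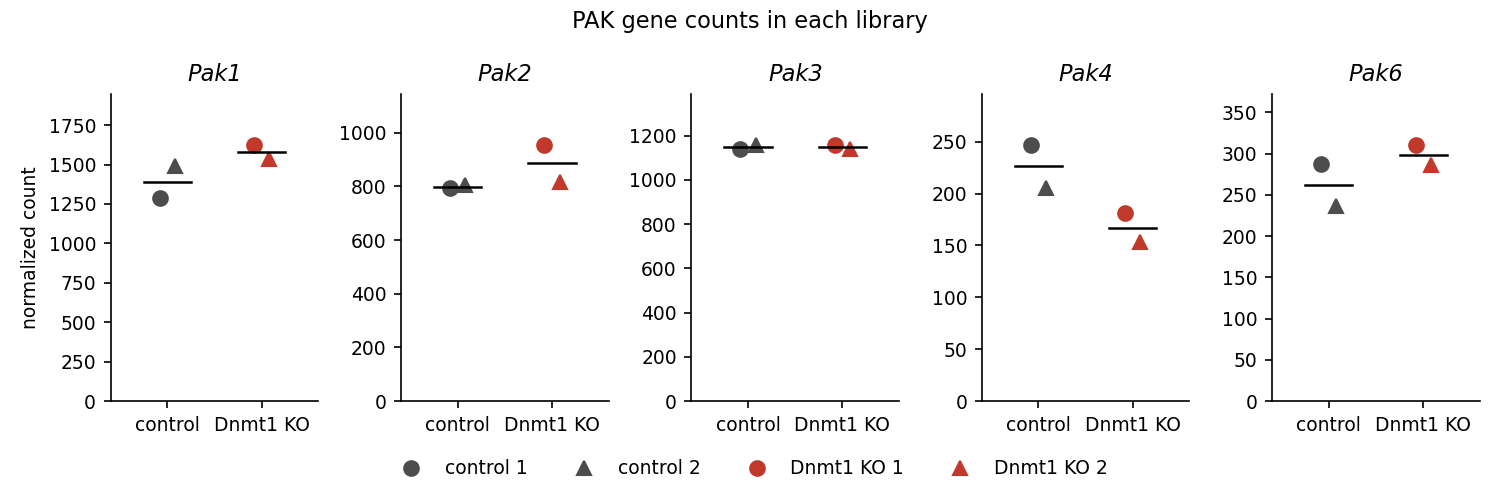
Normalized counts (vertical axis) of the 5 PAK genes in each control and *Dnmt1* KO library, with points for libraries and lines for the mean of each genotype. The *Dnmt1* KO libraries of *Pak4* (181 and 153) lie below both control libraries (247 and 205), and those of *Pak3* lie within 1137 to 1156 beside 1140 and 1159 in the control.

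*Pak1* (chr7:97437327-97562132 of GRCm39, plus strand, 16 exons in the transcript used) encodes the group I kinase best known for its part in neuronal polarity and in the actin of the leading edge. Its normalized counts were 1286 and 1493 in the control and 1626 and 1534 in the *Dnmt1* KO libraries. Both *Dnmt1* KO libraries were above both controls, though *Dnmt1* KO replicate 2 exceeded control replicate 2 by less than the control libraries differed from each other. Mean values were 1389 ± 146 (SD, n = 2) and 1580 ± 64.7 (SD, n = 2). On the scale of log2(normalized count + 1) the difference was 0.19 (SE 0.073, 95% interval 0.034 to 0.34), and it missed the threshold (limma adjusted p = 0.0890). Without control replicate 2 the log2 fold change was 0.30 and *Pak1* was called (adjusted p = 0.0194), whereas without control replicate 1 it was 0.081 (adjusted p = 0.518).

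*Pak2* (chr16:31835105-31898186, minus strand, 15 exons) encodes the group I kinase that most tissues express. It had 792 and 805 normalized counts in the control and 955 and 816 in the *Dnmt1* KO libraries. *Dnmt1* KO replicate 1 stood above the rest, while *Dnmt1* KO replicate 2 was close to the controls. The log2 fold change of *Pak2* was 0.14 (SE 0.082, 95% interval -0.031 to 0.32, limma adjusted p = 0.260) and was 0.031 without *Dnmt1* KO replicate 1 (adjusted p = 0.898). *Cep19* overlaps the *Pak2* locus on the opposite strand, but their exons do not overlap.

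*Pak3* (chrX:142301303-142580792, plus strand, 18 exons) encodes the group I kinase enriched in neurons, and variants of the human gene cause X-linked intellectual disability. Its normalized counts were 1140 and 1159 in the control and 1156 and 1137 in the *Dnmt1* KO libraries, and the genotypes overlapped. The log2 fold change of *Pak3* was -0.0034 (SE 0.064, limma adjusted p = 0.982). Its 95% interval of -0.14 to 0.13 bounds the size of a difference in either direction, and does not show that there was none. *Pak3* lies on the X chromosome, and the sex of the pooled embryos was not distinguished. *Xist*, the RNA of the inactive X chromosome, had 1402 and 1360 normalized counts in the control and 3428 and 3311 in the *Dnmt1* KO libraries. On the Y chromosome, *Ddx3y* (log2 fold change -0.31), *Uty* (-0.27), *Eif2s3y* (-0.19) and *Kdm5d* (-0.095) had lower values but were not called. Libraries of the genotypes did not overlap for *Ddx3y* and *Uty*, and did for *Eif2s3y* and *Kdm5d*. The part of the sex makeup of the pools in the values of *Pak3* was not tested.

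*Pak3* also has a long and AT-rich transcript, of 8794 bases and 39.89% GC, longer than that of 94.7% of the genes tested (median 3515 bases and 49.82% GC). Across all genes, values moved with transcript length and GC content, and this trend gave 0.25 at the length and GC of *Pak3* against -0.045 at those of *Pak1*, 0.052 at those of *Pak2*, -0.0020 at those of *Pak4* and -0.046 at those of *Pak6*. With the trend removed from each library, *Pak3* was lower in the *Dnmt1* KO (log2 fold change -0.25, limma adjusted p = 0.0135) and *Pak1* was higher (0.23, adjusted p = 0.0353). *Pak4* remained lower (-0.43, adjusted p = 0.0479), so that 3 of the 5 genes were called under this setting, where 16.7% of all genes were. The calls of *Pak1* and *Pak3* therefore depended on whether the values were compared as deposited or relative to genes of like length and GC content. Whether that trend is technical or biological was not tested. For these cells the paper reports longer transcripts among genes regulated by DNMT1 than among all genes detected. Removing the trend also removes any difference between genotypes that follows length or GC content.

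**Figure D2:**
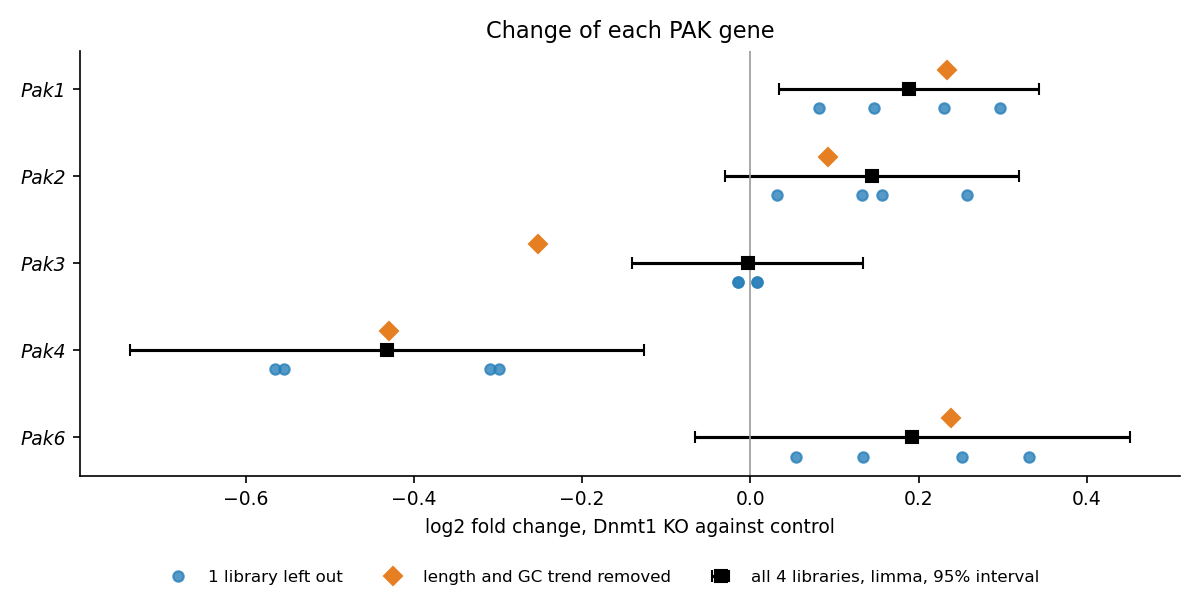
Log2 fold change of each PAK gene (*Dnmt1* KO against control, on the scale of log2(normalized count + 1)) with its 95% interval from limma, beside the values with 1 library left out and with the length and GC trend removed. Every point of *Pak4* lies below 0 (-0.57 to -0.30), while those of *Pak3* run from -0.25 to 0.0084.

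*Pak4* (chr7:28258244-28297610, minus strand, 10 exons) encodes the founding group II kinase, which phosphorylates LIM kinase and acts on cell shape and adhesion. The 250 bases before its RefSeq start (RefSeq table of GRCm38.p6, located by exact match in GRCm39 at chr7:28297610-28297859, minus strand) are shown because *Pak4* was the PAK gene called and CG dinucleotides are the sites that DNMT1 methylates. Each CG is in capitals.
Pak4 upstream window: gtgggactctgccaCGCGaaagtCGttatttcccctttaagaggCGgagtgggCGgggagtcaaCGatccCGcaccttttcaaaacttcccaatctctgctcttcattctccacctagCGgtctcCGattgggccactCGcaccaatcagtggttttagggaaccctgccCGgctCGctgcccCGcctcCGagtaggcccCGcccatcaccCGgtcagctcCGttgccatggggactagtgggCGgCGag
The window held 19 CG dinucleotides, a motif that reads the same on both strands, and 19.7% of the 32851 windows of this length held at least as many. The median window held 6 CG and 92.1% held at least 1. For the other genes with RefSeq windows, 29 and 7 CG were counted before the starts of *Pak1*, 10, 3 and 3 before those of *Pak3*, and 17 and 29 before those of *Pak6*. DNA methylation was not analysed here, and the counts describe the reference sequence only.

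*Pak4* had normalized counts of 247 and 205 in the control and 181 and 153 in the *Dnmt1* KO libraries. Both *Dnmt1* KO libraries were below both controls. The means were 226 ± 29.5 (SD, n = 2) and 167 ± 20.2 (SD, n = 2). The log2 fold change of *Pak4* was -0.43 (SE 0.14, 95% interval -0.74 to -0.13, limma adjusted p = 0.0499), that is 0.741 of the control level, and 75.4% of all genes tested changed less in either direction. Only 140 to 276 reads per library stood behind these values, so that counting alone gave a standard error of 0.105 on the log2 scale. The adjusted p was 0.0484 in edgeR, 0.0541 in limma-voom and 0.239 in DESeq2. The call was lost without control replicate 1 (log2 fold change -0.30, adjusted p = 0.308), without control replicate 2 (-0.57, adjusted p = 0.0512) and without *Dnmt1* KO replicate 2 (-0.31, adjusted p = 0.236), and it held without *Dnmt1* KO replicate 1 (-0.55, adjusted p = 0.0135).

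*Pak6* (chr2:118493734-118528524, plus strand, 9 exons) encodes a group II kinase first known as a partner of the androgen receptor and found in brain. It had normalized counts of 287 and 237 in the control and 311 and 286 in the *Dnmt1* KO libraries. The genotypes overlapped, as control replicate 1 was level with *Dnmt1* KO replicate 2, and control replicate 2 was the lowest of the 4. The log2 fold change of *Pak6* was 0.19 (SE 0.12, 95% interval -0.066 to 0.45, limma adjusted p = 0.314), and no setting tried called it (0.054 to 0.33, adjusted p 0.140 to 0.852). The values ran from 0.054 without control replicate 2 to 0.33 without control replicate 1. A higher level of up to 1.37 times the control thus lay within the interval of the ratio (0.956 to 1.37), and at this spread a change of 1.29 times would have been needed for a call. An annotated noncoding RNA on the opposite strand overlaps exons of *Pak6*, and whether reads had been counted by strand is not given in the sources used here, so its count is uncertain to that extent.

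The remaining group II gene, *Pak5*, is expressed in brain and stood outside the 5 rows chosen. It had 559 and 633 normalized counts in the control and 651 and 627 in the *Dnmt1* KO libraries (log2 fold change 0.10, limma adjusted p = 0.467), with overlap between genotypes. Of the 3 group II genes, *Pak4* alone was called, and it was the one with the fewest reads.

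Changes of the PAK genes were also compared with each other, over 10 pairs. The ratio of *Pak4* to *Pak6*, both of group II, was 0.860 and 0.867 in the control and 0.585 and 0.536 in the *Dnmt1* KO libraries. This ratio fell in both *Dnmt1* KO libraries below both controls, and the difference of the log2 fold changes was -0.62 (SE 0.19). *Pak1* changed by 0.62 more than *Pak4* (SE 0.16), *Pak2* by 0.58 more (SE 0.16) and *Pak3* by 0.43 more (SE 0.16). These were the 4 of the 10 pairs whose difference exceeded 2 standard errors, and all 4 hold *Pak4*, so they are not separate observations. The remaining 6 pairs did not exceed it. Among them *Pak1* changed by 0.19 more than *Pak3* (SE 0.097) and *Pak2* by 0.15 more (SE 0.10), without overlap of these ratios between genotypes. Ratios of the rest overlapped, from *Pak3* and *Pak6* (-0.20, SE 0.14) to *Pak1* and *Pak6* (-0.0039, SE 0.14). Each standard error joins those of the 2 genes as if independent. It is not the spread of their ratio between libraries. With 2 libraries per genotype the exact two-sided permutation test cannot give a p below 0.333 (0.556 after Benjamini-Hochberg adjustment over the 10 pairs), which 6 pairs reached.

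Levels of different genes were compared per kilobase of transcript. *Pak1* had the highest level of the 5 genes in every library, at 307 and 356 normalized counts per kb in the control and 388 and 366 in the *Dnmt1* KO. *Pak2*, at 132.5 and 135 in the control, and *Pak3*, at 130 and 132, came next and lay close together without overlapping, whereas in the *Dnmt1* KO *Pak2* was at 160 and 137 and *Pak3* at 131 and 129. *Pak4* followed at 85.2 and 70.8 in the control and 62.6 and 52.8 in the *Dnmt1* KO, and *Pak6* at 53.7 and 44.2 in the control and 58.0 and 53.5 in the *Dnmt1* KO. *Pak4* was thus above *Pak6* in both control libraries and in *Dnmt1* KO replicate 1, and just below it in *Dnmt1* KO replicate 2. Group I kinases accounted for most of the summed level. The share of *Pak4* in that sum was 12.04% and 9.60% in the control and 7.83% and 7.15% in the *Dnmt1* KO libraries, and the mean share of *Pak1* was 45.8% in the control and 49.0% in the *Dnmt1* KO. The sum over the 5 genes was 708 and 737 normalized counts per kb in the control and 799 and 738 in the *Dnmt1* KO. These levels rest on 1 transcript per gene. With the union of all annotated exons *Pak4* was above *Pak6* in both *Dnmt1* KO libraries too (49.8 and 41.9 against 43.1 and 39.7 normalized counts per kb), and the share of *Pak1* over all libraries was 37.4% in place of 47.4%.

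**Figure D3:**
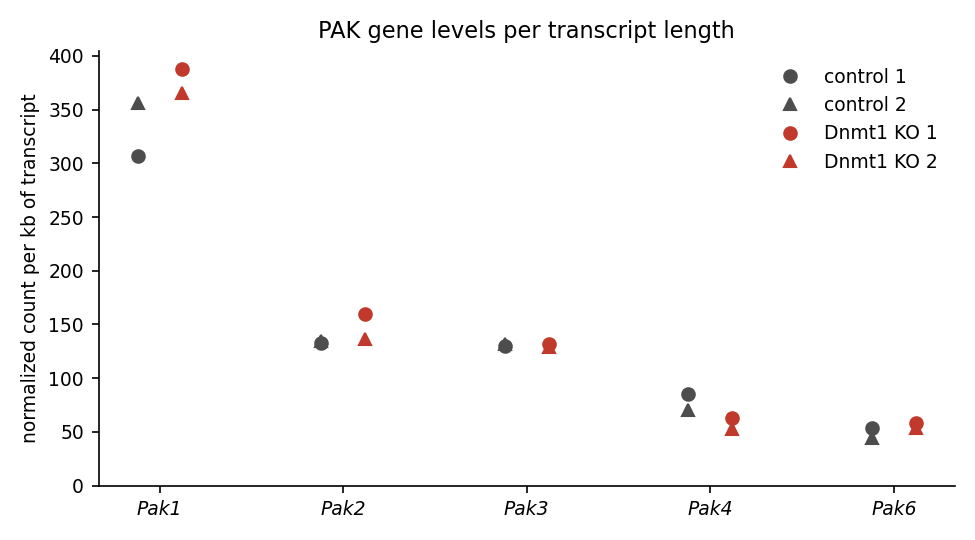
Normalized counts per kb of transcript (vertical axis) of the 5 PAK genes in each library of both genotypes. *Pak1* lies above the rest in every library, and *Pak4* exceeds *Pak6* in the control (85.2 and 70.8 against 53.7 and 44.2) and in *Dnmt1* KO replicate 1 (62.6 against 58.0) but not in *Dnmt1* KO replicate 2 (52.8 against 53.5), where the order turned with union exon lengths.

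The genes around the PAKs were taken from 7 lists of regulators, GTPases, scaffolds and targets, with 92 genes of which 88 were tested. Together 13 were higher and 11 lower in the *Dnmt1* KO (27.3% called, median log2 fold change 0.027), beside 17.3% of all genes with a median of -0.0033. The background share depends on the level of the genes. With a minimum mean of 50, 2315 of 10385 genes were called, and 24 in the lists. Among PAK regulators, *Ppm1e*, a phosphatase that inactivates group I PAKs, rose from 806 and 823 normalized counts in the control to 1006 and 1096 in the *Dnmt1* KO (log2 fold change 0.37, limma adjusted p = 0.00259). *Pdpk1*, the kinase PDK1 that phosphorylates the activation loop of PAK1, went from 533 and 550 to 683 and 624 (0.27, adjusted p = 0.0385), and this call was lost without any 1 of control replicates 1 and 2 or *Dnmt1* KO replicate 1 (adjusted p 0.0823 to 0.254), in DESeq2 (0.172) and with the length and GC trend removed (0.0776). They were 2 of 9 genes of the list, with 0 lower (1 lower at an unadjusted p below 0.05, and 0 lower in edgeR, limma-voom and DESeq2) and a median of 0.0017.

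The GTPases that bind PAKs were not called. *Rac1* had 1388 and 1258 normalized counts in the control and 1310 and 1318 in the *Dnmt1* KO (log2 fold change -0.0082, limma adjusted p = 0.954), and *Cdc42* had 1139 and 1133 against 1137 and 1067 (-0.044, adjusted p = 0.711). Of 8 tested genes in this list 0 were called by limma, edgeR, limma-voom or DESeq2, and 1 had an unadjusted p below 0.05 in limma. Without *Dnmt1* KO replicate 1, 1 gene of the list was called, *Rhoj* (-2.03, adjusted p = 0.0119), named after its values were seen. The PIX, GIT and adaptor scaffolds, which bring PAKs to adhesions, had 0 of 8 called by any of these tools, with 2 at an unadjusted p below 0.05 in limma. With the length and GC trend removed, 2 of the 8 were called, beside 16.7% of all genes. They were *Arhgef7* (log2 fold change 0.19, limma adjusted p = 0.0341) and *Nck1* (-0.53, adjusted p = 0.0138), both named after their values were seen. The medians of these lists were -0.013 and 0.035, and limma called 17.3% of all genes tested.

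Exchange factors load Rac and Cdc42 with GTP and so act upstream of PAKs. Of 20 genes in their list, 7 were higher and 4 lower (median 0.12). The list also holds *Elmo1* and *Elmo2*, whose proteins are partners of such factors. Over all genes tested, 8.3% were higher and 8.99% lower. *Dock1*, which activates Rac, fell from 227 and 232 normalized counts in the control to 99.6 and 78.7 in the *Dnmt1* KO (log2 fold change -1.36, limma adjusted p = 2.72e-05). *Tiam2* (380 and 355 against 222 and 200, -0.80, adjusted p = 0.000164) and *Prex1* (667 and 698 against 463 and 437, -0.60, adjusted p = 0.000159), both Rac exchange factors, also fell. *Elmo1*, a partner of DOCK1 in activating Rac, rose from 594 and 620 to 806 and 810 (0.41, adjusted p = 0.00157). *Dock9*, which acts on Cdc42, rose from 472 and 450 to 590 and 611 (0.38, adjusted p = 0.00590), and *Vav2* from 462 and 474 to 611 and 587 (0.36, adjusted p = 0.00863, DESeq2 adjusted p = 0.0511).

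Downstream, the LIM kinase and cofilin branch had 1 of 11 genes higher and 0 lower (0 lower at an unadjusted p below 0.05 in limma, and 0 lower in edgeR, limma-voom and DESeq2), with a median of 0.060. *Ssh2*, a phosphatase that activates cofilin and so opposes LIM kinase, rose from 1257 and 1242 normalized counts to 1578 and 1487 (log2 fold change 0.29, limma adjusted p = 0.00426). *Limk1* (723 and 731 against 657 and 735, -0.065, adjusted p = 0.645), *Limk2* (726 and 737 against 710 and 767, 0.013, adjusted p = 0.935) and *Cfl1*, the cofilin gene (4909 and 5188 against 4728 and 4719, -0.096, adjusted p = 0.175), were not called. Other PAK substrates had 6 of 12 genes lower and 0 higher (0 higher at an unadjusted p below 0.05 in limma, and 0 higher in edgeR, limma-voom and DESeq2), with a median of -0.28. Over all genes tested, limma called 8.3% higher and 8.99% lower. DESeq2 called 4 of these substrates (9.97% of all genes), as did limma with the length and GC trend removed (16.7% of all genes). *Vim*, the intermediate filament vimentin, fell from 3827 and 3964 to 1861 and 1956 (-1.03, adjusted p = 1.34e-08), *Flna*, the actin crosslinker filamin A, from 1910 and 1741 to 1235 and 1379 (-0.48, adjusted p = 0.000200), and *Ctnnb1*, the gene of beta-catenin, from 4408 and 4222 to 3457 and 3438 (-0.32, adjusted p = 0.000221). *Vim* is also among the radial glia markers.

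Radial glia markers had a summed normalized count of 10148 to 10242 in the control and 6024 to 6226 in the *Dnmt1* KO, cycling cell markers 5132 to 5308 and 3627 to 3665, and excitatory lineage markers 2862 to 2936 and 1414 to 1569. Those of blood had 2400 to 2591 and 576 to 590.0, those of vascular cells and microglia 549 to 552 and 229 to 275, and those of oligodendrocyte precursors 144 to 174.5 and 98.3 to 112. All of these sums moved down as did *Pak4* and the substrates named, and their part in the changes of PAK genes and pathway genes was not tested.

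Other effectors of Cdc42 and Rac, which bind the same GTPases as PAKs, had 3 higher and 1 lower of 20 tested (median 0.10). Over all genes tested, 8.3% were higher and 8.99% lower. *Wasf1*, which drives actin branching downstream of Rac, rose from 824 and 828 to 979 and 981 normalized counts (log2 fold change 0.25, limma adjusted p = 0.0225). *Cdc42bpa* (1361 and 1267 against 1482 and 1576, 0.22, adjusted p = 0.0301) and *Cdc42bpb* (1883 and 1898 against 2096 and 2232, 0.19, adjusted p = 0.0271), the MRCK kinases that bind Cdc42, also rose. The lower gene was *Baiap2*, named after its values were seen (96.6 and 81.7 against 62.1 and 45.9, -0.72, adjusted p = 0.0386), a link between GTPases and actin, whose call was lost without either control library or *Dnmt1* KO replicate 2 (adjusted p 0.0896 to 0.226). DESeq2 called 0 of this list (9.97% of all genes), with 4 at an unadjusted p below 0.05. The call of *Wasf1* was lost without any 1 of the 4 libraries (adjusted p 0.0670 to 0.0860), and that of *Cdc42bpa* without control replicate 2 (0.177) or *Dnmt1* KO replicate 2 (0.194) and with the length and GC trend removed (0.0948). *Cdc42bpb* was not called without control replicate 1 (adjusted p = 0.0889), control replicate 2 (0.0747) or *Dnmt1* KO replicate 2 (0.234).

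**Figure D4:**
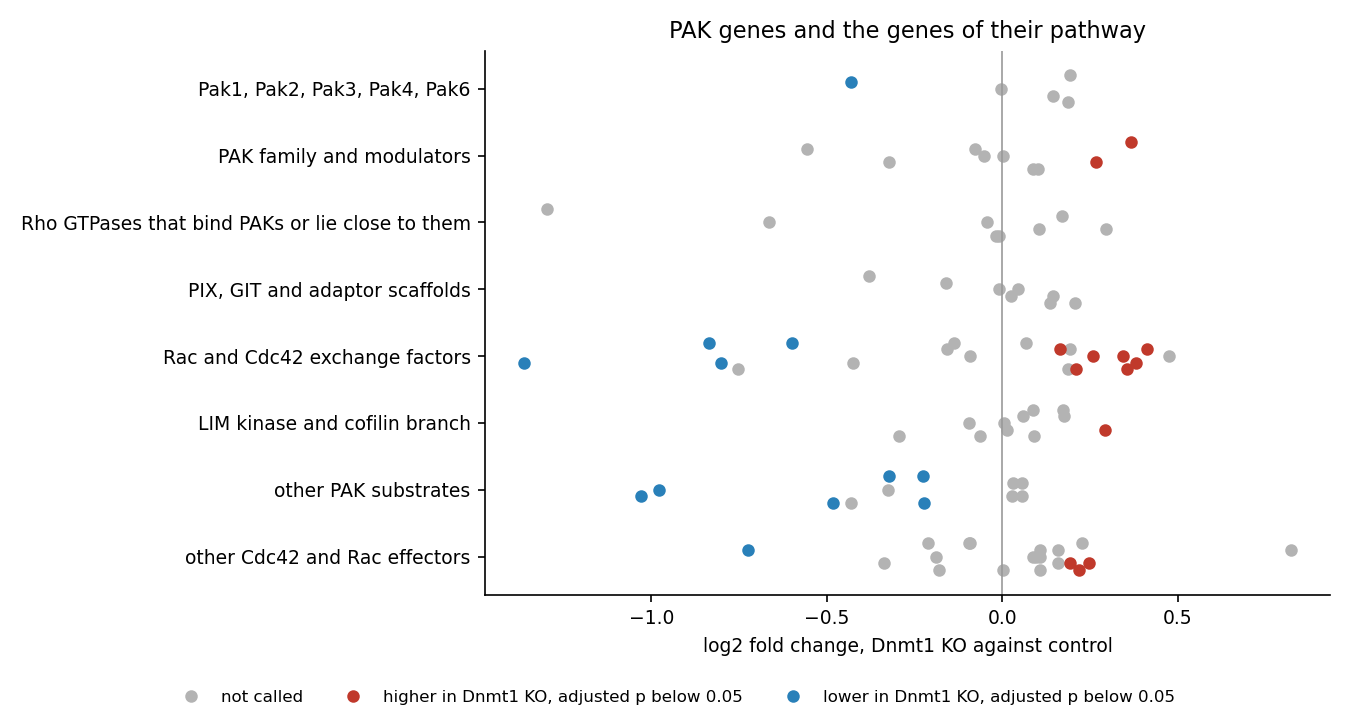
Log2 fold change of the 5 PAK genes (top row) and of each tested gene in the 7 lists around them (horizontal axis, *Dnmt1* KO against control), with genes called by limma at an adjusted p below 0.05 set apart by colour. The list of exchange factors and ELMO partners holds 7 higher and 4 lower genes of 20, and the other PAK substrates hold 6 lower and 0 higher of 12. Over all genes tested, 8.3% were higher and 8.99% lower.

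The genes whose pattern over the 4 libraries lay closest to that of each PAK gene were found among 8144 protein-coding genes whose mean was 100 normalized counts or more. Likeness was the Euclidean distance between log2 values centred on the gene's mean. The nearest to *Pak1* were *2310022B05Rik* (0.0136), *Syn1* (0.0200) and *Arl8a* (0.0210), and to *Pak2* they were *Rabgef1* (0.0280), *Asic1* (0.0283) and *Wdr5* (0.0312). For *Pak3*, which was flat, they were *Deaf1* (0.0102), *Kif3a* (0.0106) and *Drosha* (0.0121). *Pak4* had *Ak3* (0.0442), *Gm49450* (0.0501) and *Etfb* (0.0629), and *Pak6* had *Inpp5k* (0.0286), *Commd9* (0.0386) and *Grina* (0.0395). The distance was not scaled to how much a gene varied between libraries, so its size does not compare between PAK genes. With 4 libraries, such distances are a description of these pools.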

How the data were processed

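RNA of 2 control and 2 *Dnmt1* KO libraries was analysed, grouped by the sample labels. Total RNA from 50000 sorted cells pooled per genotype had been depleted of rRNA, made into stranded libraries and sequenced in pairs. After trimming (Trim Galore), alignment to GRCm39 (STAR) and quantification (Salmon), the authors deposited a signal, gene counts divided by 1 size factor per library (DESeq2 1.32.0 per the submitters' processing notes). The use of strand in counting is not given in the sources used here. All 89965 values above 0 (100%) were whole reads to within 0.0001 of a read, and the recovered reads, 6970247 to 8376711 per library, served the count tests.

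Genes averaging 10 or more normalized counts entered limma 3.58.1 (R 4.3.3) as log2(normalized count + 1), with genotype as the only term, a trend of the prior variance and Benjamini-Hochberg adjustment over 14323 genes, and called at an adjusted p below 0.05. Fold changes on this scale understate those of low genes. Alternatives were pseudocounts of 0.5 and 10, minimum means of 1 and 50 or no minimum, TMM and quantile scaling, no variance trend, edgeR 4.0.16 (quasi-likelihood), DESeq2 1.42.0 and limma-voom on whole reads, a fit without the trend over transcript length and GC content (splines of 5 degrees of freedom), the replicate block, and each library left out, where limma pooled the spread. Differences between PAK genes were tested by exact permutation. Scripts used Python 3.11.15, numpy 2.4.6, pandas 2.3.3, scipy 1.17.1 and matplotlib 3.10.9. The fits were also run on simulated counts whose changes followed no length or GC trend. Their outcome is not given here and does not bear on the calls that turned on that trend.

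The GENCODE annotation of GRCm39 held 14285 of the genes tested. RefSeq upstream windows matched 4 of the 5 genes. Protein sequences were not used here. Besides the PAK genes, *Dnmt1* and *Sst*, the text names *Pak5*, *Rac1*, *Cdc42*, *Limk1*, *Limk2* and *Cfl1*, up to 3 called genes in each direction per pathway list with a mean of at least 100, the 3 nearest patterns per PAK gene, and sex-linked markers. Members and lists were chosen with earlier results of these data known, and no list was tested as a set.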

Additional observations from a re-analysis of the deposited data

How the results depend on the processing

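Each PAK gene was refitted under 18 alternatives. *Pak2* (0.031 to 0.26) and *Pak6* (0.054 to 0.33) kept their direction and were never called. *Pak4* kept its direction in all 18 and its call in 8. It was not called with a pseudocount of 0.5 (-0.43, adjusted p = 0.0501), a minimum mean of 1 (-0.43, 0.0589), no filter (-0.43, 0.0878), quantile scaling (-0.39, 0.0894), no variance trend (-0.43, 0.221), DESeq2 (-0.43, 0.239) or limma-voom (-0.43, 0.0541), and ran from -0.57 to -0.30 with 1 library left out. In these 7 settings 0 PAK genes were called (without the variance trend 0 of the 5 had an unadjusted p below 0.05). *Pak1* was called with the length and GC trend removed (0.23), and ran from 0.081 to 0.30 with 1 library left out. *Pak3* was called with that trend removed (-0.25), and its sign turned without control replicate 2 (0.0083) and without *Dnmt1* KO replicate 2 (0.0084), within -0.015 to 0.0084 over the 4 fits. With the trend removed 3 PAK genes were called, and with 1 library left out 0 or 1.

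The replicate number as a block gave 0.19 for *Pak1* (limma adjusted p = 0.0388) and -0.43 for *Pak4* (0.0178), hence 2 PAK genes called. With the length and GC trend removed as well it gave 0.23 for *Pak1* (adjusted p = 0.00642) and -0.25 for *Pak3* (0.00618), with 3 PAK genes called. The block called 2957 genes in all beside 2476. Deviations of libraries sharing a number correlated by 0.0157 over 8418 genes. With 2 libraries per genotype this value cannot show whether such libraries also shared a preparation, and the labels do not say. No pairing was used in the main fit.

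Genes called in all numbered 2476, and 0 without the variance trend (3339 at an unadjusted p below 0.05), 1317 by DESeq2 and 1525 to 2205 with 1 library left out (1648 without control replicate 1 and 1525 without control replicate 2). In the pathway lists 24 genes were called, and 0 without the variance trend, 14 by DESeq2 and 15 to 23 with 1 library left out, 15 without *Dnmt1* KO replicate 2. The single lists' counts stayed within 1.5 times in 104 of 126 refits. With union exon lengths the mean shares of the family level were 37.4% for *Pak1*, 23.2% for *Pak2*, 12.5% for *Pak4* and 8.96% for *Pak6*, in place of 47.4%, 18.9%, 9.16% and 7.02%. The cause of these changes was not tested. Depth limits *Pak4* and *Pak6* most, where a call needed a fold of 1.35 and 1.29, against 1.14 to 1.19 for the other PAK genes.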
